A study of Danio rerio with 13 samples.

Results

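The genes described here are the matrix proteases and their inhibitors of the zebrafish face: the matrix metalloproteinases (*mmp*), the tissue inhibitors of metalloproteinases (*timp*), the membrane-bound disintegrin metalloproteinases (*adam*), and the secreted *adamts* proteases with the protease-less *adamtsl* relatives. They were taken by name alone, as every entry of the deposited expression table whose gene name starts with one of those stems followed by a number (for *adamts*, by any ending), which gave 55 of 27911 genes. There were 20 *mmp*, 3 *timp*, 15 *adam*, 14 *adamts* and 3 *adamtsl* genes. No measured value entered that naming rule, which was set with earlier results of these data known.

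Metalloproteinases carry zinc in the active site and are made as inactive proenzymes. The MMPs cut collagens, gelatins and other matrix proteins, and membrane-type MMPs such as MMP14 activate pro-MMP2 at the cell surface in a complex that includes TIMP2, which at higher levels inhibits MMP14. The ADAMs mostly release the outer parts of membrane proteins, among them Notch receptors and their ligands, while the secreted ADAMTS enzymes cut versican, aggrecan and procollagens. Migrating neural crest and condensing cartilage are settings in which this remodelling has been studied for many years.

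The study sorted cells of *fli1a*:EGFP; *sox10*:DsRed embryos and sequenced the RNA of 13 libraries, 1 per condition, to follow how the Edn1 and Jagged-Notch pathways pattern neural crest-derived cells (NCCs) of the pharyngeal arches. Cells positive for both reporters (double-positive) were taken from wild types (WT) at 20, 28 and 36 hours post-fertilisation (hpf), and cells positive for *fli1a*:EGFP alone or *sox10*:DsRed alone (fli1a-only, sox10-only) from WT at 36 hpf. Each library came from many pooled embryos, and the embryos for 36 hpf had been kept cooler for part of the time to slow them.

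All 8 further double-positive libraries were from 36 hpf. The 5 perturbed ones were *edn1*-/- mutants (allele tf216, picked by the shape of the arches), *jag1b*-/- mutants (allele b1105, picked by genotyping), WT embryos kept in the gamma-secretase inhibitor dibenzazepine (DBZ), and heat-shocked hspGal4 ; UASEdn1 and hspGal4 ; UASNICD embryos, in which a heat-shock promoter drives Edn1 or the Notch1a intracellular domain throughout the embryo. The 3 further controls were genotyped *jag1b*+/+ siblings and heat-shocked hspGal4 and UASEdn1 embryos. With WT at 36 hpf they made 4 control libraries. The *edn1* and DBZ comparisons share the WT library, which had no vehicle treatment and was, like them, labelled neither genotyped nor heat-shocked. The Edn1 and NICD comparisons share the hspGal4 library.

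Values are RPKM, reads per kilobase of transcript scaled to library size, as deposited. A gene counts as measured where its mean was at least 1 RPKM over the 11 double-positive libraries (11399 genes), or over all 13 for the sorted populations (11690 genes), and is called higher or lower where the ratio was at least 1.5 in either direction. For the 5 perturbations its level had also to lie beyond all 4 controls. With 1 library per condition no difference could be tested, so each main count of members stands beside the percentage of all measured genes called the same way. That percentage was not counted for alternative control libraries, scaling or settings. Where the RPKM steps gave whole reads, which was so for 32 members, ratios carry an exact 95% Clopper-Pearson interval in brackets. It covers counting error only, and compares libraries, not conditions.

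The libraries were of like depth, between 0.69 and 1.23 times that of WT at 36 hpf. Of the targeted genes, *edn1* was too low to check the mutant label, with 0 RPKM in *edn1*-/- against 0.0488 (3 reads) to 0.502 in the controls. The others went with their labels: *edn1* was 6.31 RPKM in hspGal4 ; UASEdn1, *jag1b* was 3.42 in *jag1b*-/- against 18.9 in siblings, and *notch1a* was 31.0 in hspGal4 ; UASNICD against 3.44 in hspGal4. All 8 arch NCC markers were measured, and they summed to between 429 and 840 RPKM in the double-positive libraries against 275 in fli1a-only and 160 in sox10-only cells. The single-positive populations are mixtures: the red blood cell list summed to 52916 RPKM and the endothelial list to 168 in fli1a-only cells, and the ear list to 239 and the glia and pigment list to 441 in sox10-only cells. The double-positive cells were not pure either, and the paper proposes some contamination by blood, macrophage and ear cells. Their red blood cell list summed to between 11.7 (*edn1*-/-) and 3067 RPKM (WT at 28 hpf), with 118 in WT at 36 hpf and 1222 in hspGal4.

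The levels of these genes in arch NCCs were uneven. Of the 55 members 24 were measured over the double-positive libraries, a share near that of all genes (11399 of 27911). They were 9 of 20 *mmp*, 2 of 3 *timp*, 9 of 15 *adam*, 4 of 14 *adamts* and 0 of 3 *adamtsl* genes. A further 23 had a mean under 0.3 RPKM, and 1, *adamts13*, was listed at 0 in every library. In WT at 36 hpf 14 members reached 3 RPKM. For these 2 levels, 0.3 and 3 RPKM, the share over all genes was not counted. The aggrecan and versican protease *adamts1*, the gelatinase *mmp2*, the membrane-type *mmp14b* and *mmp14a*, and the inhibitor *timp2a* together made up 71.8% of the summed RPKM of all members there, and between 66.5% and 73.6% in the other 36 hpf double-positive libraries. At 20 hpf the same 5 genes made up 30.0%, in fli1a-only cells 66.0% and in sox10-only cells 42.6%. The 5 were picked by their means over the double-positive libraries, most of which are of 36 hpf. A lower share in other libraries follows in part from that choice. At 20 hpf *mmp13a* (69.4 RPKM), *adam8a* (30.8) and *adam10a* (21.8) were each above *adamts1* (19.9). The map of levels by library shows this small set of abundant transcripts above a long tail.

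**Figure D1:**
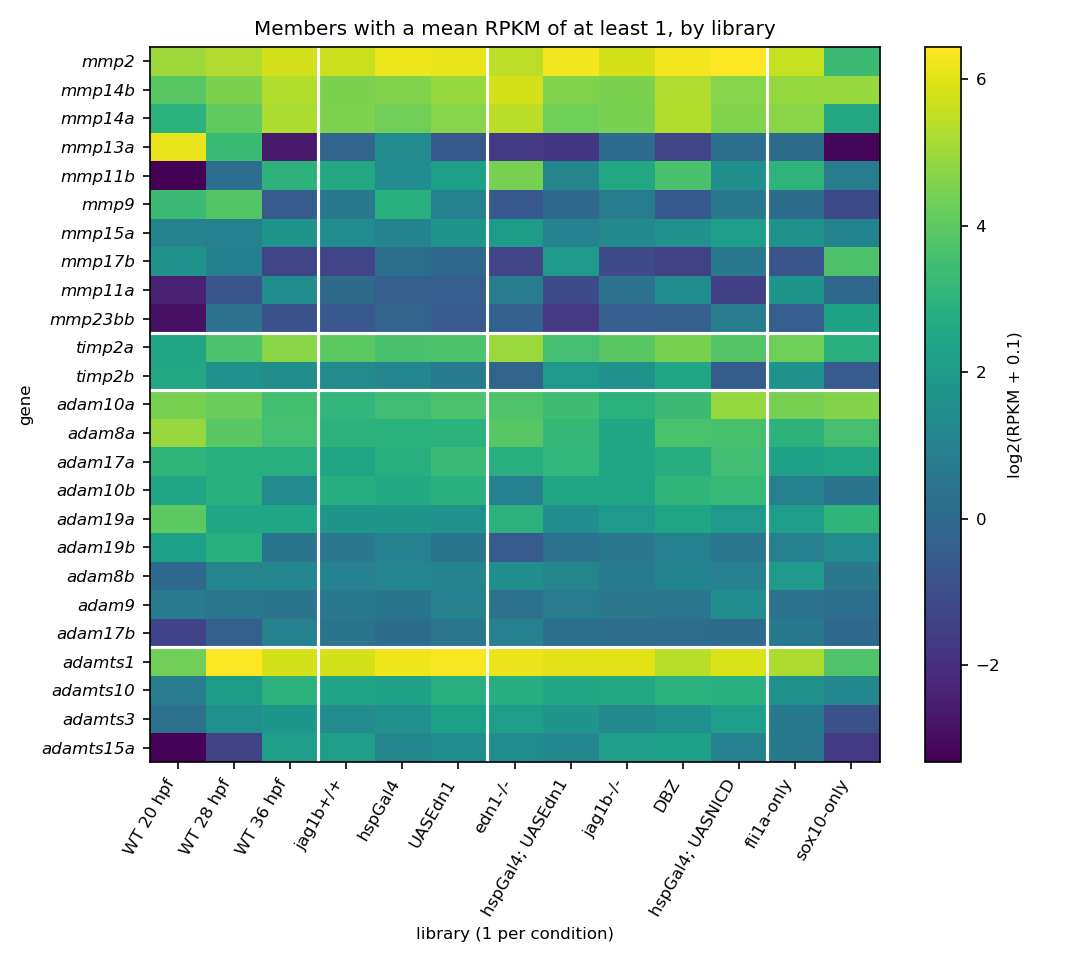
Levels of the 25 members with a mean of at least 1 RPKM over the 11 double-positive or over all 13 libraries, as log2(RPKM + 0.1) on the colour scale, with 1 column per library and 1 row per gene, grouped by family. The row of *mmp13a* is bright at 20 hpf (69.4 RPKM) and dark at 36 hpf (0.0640 RPKM), and *mmp17b* is brightest in sox10-only cells (13.1 RPKM).

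Among the inhibitors, *timp2a* was the abundant one, with 5.40, 12.6 and 26.1 RPKM at 20, 28 and 36 hpf in WT. Its paralogue *timp2b* went from 5.87 to 3.10 and 2.72 RPKM over the same stages, so that the 2 genes were near each other at 20 hpf and far apart at 36 hpf. The third, *timp4a*, had 0.334 RPKM at 20 hpf and was listed at 0 in the 12 others. Of the 3 *adamtsl* genes taken by name the highest value was 0.866 RPKM, for *adamtsl3* in *jag1b*-/-.

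The stage comparisons ask how the set changes as the arches grow and begin to condense. From 20 to 28 hpf 12 of the 24 measured members were higher and 5 lower, where 19.9% and 10.7% of all measured genes were. From 28 to 36 hpf 9 were higher and 7 lower, against 14.8% and 23.9% of all. The median log2 ratio of the members was 0.52 in the first interval, beside 0.10 over all measured genes, and 0.03 in the second, beside -0.10. The share of members lower in the second interval was near that of all genes. In both intervals 8 members were higher, which 5.01% of all measured genes were, and 2 were lower in both (4.11% of all). Those 2, *mmp13a* and *mmp17b*, would not count as measured without their 20 and 28 hpf levels.

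The membrane-type collagenases and their inhibitor were among the 8. *mmp14a* had 7.39, 16.5 and 38.0 RPKM at 20, 28 and 36 hpf, ratios of 2.24 and 2.30. *mmp14b* had 15.3, 23.0 and 39.4 RPKM, ratios of 1.505 and 1.71, and the levels of *timp2a* given above make ratios of 2.34 and 2.07. The ratio of 1.505 was just past the threshold and not past it with median-ratio scaling. These proteases and *timp2a* were thus each higher at each later stage. The summed RPKM of *mmp14a* and *mmp14b* over that of *timp2a* and *timp2b* was 2.01, 2.51 and 2.68 at the 3 stages. That ratio includes *timp2b*, which went the other way. *mmp2*, the proenzyme that MMP14 activates, had 32.1, 39.2 and 55.0 RPKM and passed the threshold in neither interval.

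The steepest increases were in genes almost silent at 20 hpf. *mmp11b*, a stromelysin-3 gene whose mammalian counterpart marks stroma around growing epithelia, had 0, 84 and 629 reads (0, 1.04 and 7.85 RPKM). It was at least 27.9-fold higher at 28 than at 20 hpf, taking 3 reads as the floor of the 20 hpf library (the 95% interval of the ratio starts at 22.2), and 7.55-fold (6.004 to 9.60) higher again at 36 hpf. Its paralogue *mmp11a* had 0.0856, 0.499 and 2.69 RPKM, ratios of 5.83 (2.59 to 15.4) and 5.38 (3.84 to 7.71). The mean of *mmp11a* over the 11 double-positive libraries was 1.05 RPKM, and without WT at 36 hpf it would not count as measured. The versican protease *adamts15a* had 1, 40 and 633 reads (0.00688, 0.274 and 4.37 RPKM), 39.8-fold (6.74 to 1611) and then 16.0-fold (11.6 to 22.5) higher. The first of these rests on 1 read, and its log2 ratio went from 5.31 to 1.81 with a pseudocount of 0.1. *adamts10*, which binds fibrillin, had 1.65, 4.13 and 7.56 RPKM, and the sheddase gene *adam17b* had 0.289, 0.707 and 1.94 RPKM.

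*adamts1* behaved differently. It had 19.9, 84.8 and 56.3 RPKM, which is 4.25-fold higher at 28 than at 20 hpf and 1.51-fold lower at 36 than at 28 hpf, just past the threshold and not past it with median-ratio scaling. It was the most abundant member at 28 hpf and its lowest double-positive level was at 20 hpf. The procollagen protease *adamts3* had 1.17, 2.87 and 3.52 RPKM, a ratio of 2.44 and then no call. The *adamts* family as a whole summed to 24.5, 94.0 and 76.7 RPKM, with *adamts1* the largest part at each stage.

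Of the genes that were lower, the collagenase *mmp13a* stood out, with 10884 reads at 20 hpf, 1566 at 28 hpf and 10 at 36 hpf (69.4, 9.94 and 0.0640 RPKM). It was the most abundant of all 55 members at 20 hpf. The level was 6.99-fold (6.62 to 7.37) lower at 28 hpf and a further 155-fold (84.2 to 325) lower at 36 hpf. It counts as measured through its 20 and 28 hpf levels, since no 36 hpf double-positive library had more than 2.52 RPKM. The gelatinase *mmp9* had 1625, 2222 and 93 reads (10.3, 14.0 and 0.589 RPKM), a 23.7-fold (19.3 to 29.5) lower level at 36 than at 28 hpf.

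Several *adam* genes were also lower at the later stages. *adam8a*, whose mammalian counterpart is known from leukocytes, had 30.8, 15.2 and 11.3 RPKM. *adam19a* had 15.9, 5.74 and 5.39 RPKM and its paralogue *adam19b* 4.44, 6.91 and 1.30. *adam10a*, which encodes the sheddase that cuts ligand-bound Notch, had 21.8, 18.3 and 11.2 RPKM, and the summed *adam* level went from 90.8 to 65.7 and 45.0 RPKM. *mmp17b*, a glycolipid-anchored membrane-type MMP gene known in zebrafish for a role in neural crest migration, had 3.17, 1.75 and 0.310 RPKM. Without its 2 earlier levels its mean would be below the minimum.

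The summed level of macrophage and neutrophil markers, like the levels of *mmp13a*, *mmp9* and *adam8a*, was lower at 36 hpf than at either earlier stage. The list of 9, of which 7 were measured, came to 389 RPKM at 20 hpf, 845 at 28 hpf and 24.8 at 36 hpf in WT, and to between 17.5 and 98.0 over the 4 controls. Its macrophage genes *spi1b* (51.8, 13.6 and 0.184 RPKM) and *mpeg1.1* (36.6, 3.84 and 0.339) were highest at 20 hpf, and the neutrophil genes *lyz* (18.9, 645 and 19.0) and *mpx* (1.13, 38.3 and 0.437) at 28 hpf. *marco* was near 0 throughout, at 0.398 RPKM or less. The red blood cell list was also lowest at 36 hpf, with 553, 3067 and 118 RPKM at the 3 stages. Over the 4 controls it came to between 118 (WT) and 1222 (hspGal4). The part of these cells in the members' levels was not tested, and in bulk RNA fewer cells of a type cannot be told apart from less RNA per cell. The glia and pigment list went from 124 to 67.0 and 5.66 RPKM, the same direction as *mmp17b*, with the same limit. Most of that sum was *sox10* (70.5, 25.9 and 3.12 RPKM) and *foxd3* (24.2, 16.1 and 1.28). Of the others, *mitfa* and *tyr* were highest at 20 hpf, and *dct* (0.607, 9.44 and 0.147 RPKM), *plp1a* and *pmela* at 28 hpf.

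**Figure D2:**
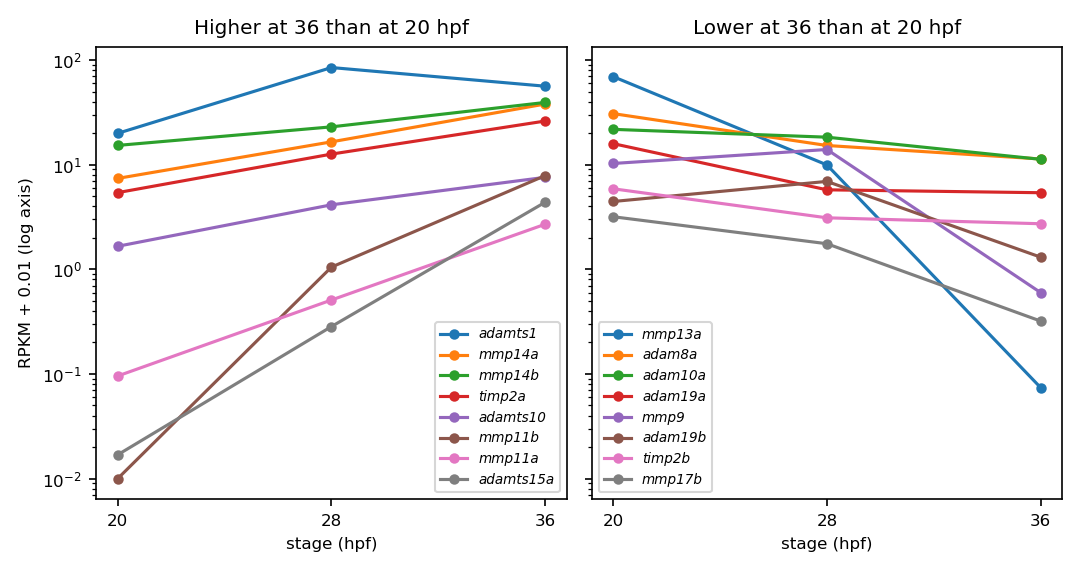
RPKM + 0.01 on a log axis against stage (20, 28 and 36 hpf) for 16 members in WT double-positive cells, 1 library per point; the left panel shows members higher at 36 than at 20 hpf and the right panel members lower. *adamts15a* and *mmp11b* start at the bottom of the left panel with 1 and 0 reads, and *mmp13a* crosses the right panel from 69.4 to 0.0640 RPKM.

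The 36 hpf end of these comparisons rests on 1 WT library. With the *jag1b*+/+ siblings in its place 12 members were called from 28 to 36 hpf rather than 16, and 10 of the 16 kept their call. *mmp14a*, *mmp14b*, *timp2a*, *adamts10*, *mmp15a* and *adam10b* lost theirs, and *mmp14b* was no higher than at 28 hpf (22.5 against 23.0 RPKM). Of those that kept it, *mmp13a* had a log2 ratio of -3.63 rather than -7.28, and *mmp11a* 0.91 rather than 2.43. In that comparison 4 members were higher and 8 lower, and the share over all genes was not counted. Other stage differences held over all 9 double-positive libraries of 36 hpf, perturbed ones included. *mmp11b* lay between 2.101 and 21.8 RPKM in them, above 1.04 at 28 hpf, and *adamts15a* between 1.85 and 4.42, above 0.274. *mmp13a* reached at most 2.52 RPKM, below 9.94, *mmp9* at most 7.13, below 14.0, and *adam19b* at most 1.81, below 6.91.

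The sorted populations ask where in the embryo these genes are used. Against fli1a-only cells, 4 of 25 measured members were higher in double-positive cells and 5 lower, where 17.8% and 11.8% of all measured genes were. Their median log2 ratio was 0.22, as over all genes (0.22). Against sox10-only cells 16 of 25 were higher and 5 lower, where 22.9% and 16.4% of all were, and the median log2 ratio was 0.995 beside 0.15 over all genes. In all, 9 members were called against fli1a-only and 21 against sox10-only cells. With each library divided by its median ratio to the others (over 8698 genes), 3 were higher and 7 lower than in fli1a-only cells. On the log2 scale that division lowers a typical gene by up to 0.28 (in *edn1*-/-) and raises it by up to 0.19 (in fli1a-only cells).

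All 4 members higher than in both other populations were *adamts* genes, and all 4 measured *adamts* genes taken by name were among them; 9.0% of measured genes were higher than in both. *adamts15a* had 4.37 RPKM in double-positive cells against 1.43 in fli1a-only and 0.219 in sox10-only cells, 3.05-fold (2.58 to 3.63) and 20.0-fold (13.8 to 29.8) higher. *adamts3* had 3.52 RPKM against 1.46 and 0.440, and *adamts10* 7.56 against 2.92 and 2.20. *adamts1* had 56.3 RPKM against 37.3 and 13.2, the first a ratio of 1.51, near the threshold and not past it with median-ratio scaling.

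A second group of 9 members was higher than in sox10-only but not than in fli1a-only cells, which 12.1% of measured genes were. *mmp14a* had 38.0 RPKM in double-positive, 26.3 in fli1a-only and 5.94 in sox10-only cells, and *mmp2* 55.0, 47.3 and 10.3. *timp2a* had 26.1, 19.5 and 6.93 RPKM, and *timp2b* 2.72, 3.16 and 0.600. *mmp11b* (7.85, 8.10 and 1.66 RPKM) and *mmp11a* (2.69, 3.32 and 0.895) were, like *timp2b*, a little higher in fli1a-only than in double-positive cells. The *mmp14* paralogues parted here, since *mmp14b* was nearly level in all populations, with 39.4, 29.5 and 30.3 RPKM. In sox10-only cells *mmp14a* and *mmp14b* summed to 4.81 times the RPKM of *timp2a* and *timp2b*, against 2.68 in double-positive and 2.46 in fli1a-only cells.

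Other members were higher in a single-positive population than in double-positive cells. *mmp17b* had 13.1 RPKM in sox10-only cells against 0.310 in double-positive and 0.475 in fli1a-only cells, 42.3-fold higher than in double-positive cells. *mmp23bb*, a member of the MMP23 type that lacks the usual hemopexin domain, had 4.97 RPKM (393 reads) in sox10-only against 0.443 (37 reads) in double-positive cells, 11.2-fold (8.01 to 16.2) higher. It counts as measured only through its sox10-only level, so that it had to differ there. *adam19a* (8.22 against 5.39 RPKM) and *adam19b* (2.52 against 1.30) were also higher in sox10-only cells. *adam10a*, at 11.2 RPKM in double-positive cells, was higher in both other populations, with 21.8 in fli1a-only and 24.6 in sox10-only cells. In fli1a-only cells *adam8b* had 3.72 RPKM against 2.17.

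*mmp13a* and *mmp9* were at 0.993 and 0.990 RPKM in fli1a-only cells (134 and 135 reads) against 0.0640 and 0.589 in double-positive cells. The macrophage and neutrophil list summed to 284 RPKM in fli1a-only and to 24.8 in double-positive cells, and the red blood cell list to 52916 and 118. Their part was not tested. Those calls depend on the library used for comparison: the *jag1b*+/+ double-positive cells had 0.800 RPKM of *mmp13a*, which is not past the threshold, and 1.44 of *mmp9*, which is above fli1a-only cells. With that library 9 members were again called against fli1a-only cells, 7 of them the same, and 18 against sox10-only cells, 17 of them the same. Shares over all genes were not counted with it. *mmp11a* and *adam10b* were then called against fli1a-only cells, and *mmp11a* no longer against sox10-only cells. The *mmp13a* call against sox10-only cells rests on 10 and 2 reads, a ratio of 4.73 (1.01 to 44.4).

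**Figure D3:**
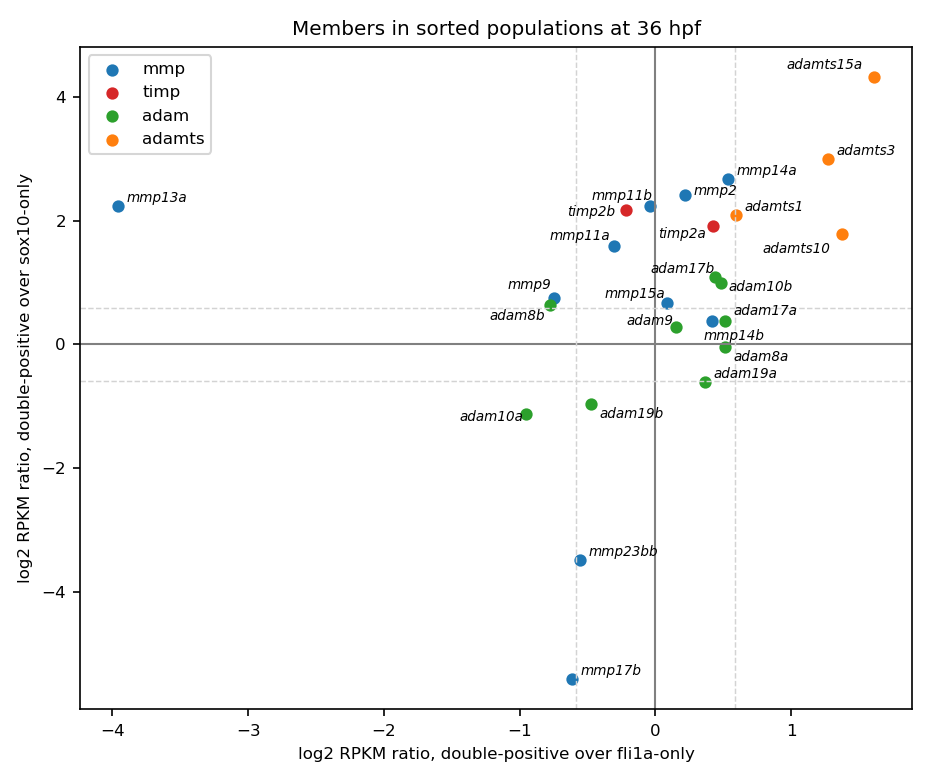
Log2 RPKM ratio of WT double-positive over fli1a-only cells (x axis) and over sox10-only cells (y axis) at 36 hpf for the 25 measured members, coloured by family; dashed lines mark a ratio of 1.5 in either direction. The 4 *adamts* genes lie at the upper right, *mmp17b* and *mmp23bb* at the bottom, and *mmp13a*, with 10 reads in double-positive cells, at the far left.

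Before the perturbations, the 4 controls show how far a level differed between libraries with neither pathway changed. These controls differed in heat shock and genotyping, so their spread includes any effect of those. The highest control was at least 1.5 times the lowest for 19 of the 24 measured members (79.2%, against 58.9% of all measured genes) and at least 2 times for 8 (33.3%, against 25.6%). Between the 2 heat-shocked controls 3 members were higher in UASEdn1 (*mmp11b*, *mmp15a* and *adamts3*) and 2 lower (*mmp13a* and *mmp9*), where 8.76% and 6.83% of all genes were. With median-ratio scaling that pair gave 1 higher and 4 lower. The unshocked pair differed more, since 3 members were higher in *jag1b*+/+ than in WT (*mmp13a*, *adam10b* and *mmp9*) and 6 lower (*mmp11a*, *mmp14b*, *timp2a*, *mmp14a*, *adam19a* and *adam17b*), where 12.7% and 17% of all genes were. The median log2 ratio of members in that pair was -0.35, beside -0.11 over all genes.

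The *mmp14* genes and *timp2a* were part of that spread. *mmp14a* had 38.0, 43.2 and 39.6 RPKM in WT, *edn1*-/- and DBZ, the 3 libraries of 36 hpf labelled neither genotyped nor heat-shocked, and between 19.6 and 25.4 in the 6 others. *mmp14b* had 38.5 to 55.6 RPKM in those 3 and 22.5 to 30.9 in the 6, and *timp2a* 22.3 to 31.4 and 11.3 to 15.6. *mmp11a*, *mmp11b* and *adam19a* were likewise higher in all 3 than in any of the 6, and *mmp9* was lower (0.535 to 0.589 against 0.904 to 7.13 RPKM). That made 6 of 24 members higher without overlap and 1 lower, where 6.26% and 4.25% of all measured genes were. Of the 6, *mmp11a* counts as measured only through the 3 libraries where it was high, with a mean of 1.05 RPKM over the 11 double-positive libraries. This split was looked at after the levels had been seen, and handling cannot be told apart from other things those libraries may share. The summed muscle list split the same way, with 169, 59.9 and 126 RPKM in the 3 and between 4.55 and 54.0 in the 6. Most of that sum was 1 gene, *actc1b*, with 155, 57.0 and 116 RPKM in WT, *edn1*-/- and DBZ. The levels of *tnnt3a*, *desma*, *myod1* and *myog* overlapped between the 3 and the 6. The part of muscle cells in the members' levels was not tested.

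In *edn1* mutants, which lack a ventral arch signal, 1 member was higher (20.3% of all measured genes were) and 2 were lower (8.06% of all). The median log2 ratio was 0.11 for members and 0.23 for all genes, and with median-ratio scaling, which lowers this library by 0.28 and WT by 0.03, 1 member was higher and 4 lower (*adam10b* and *adamts15a* added). *mmp11b* had 1197 reads against 629 in WT, 21.8 against 7.85 RPKM, a ratio of 2.77 (2.51 to 3.06). The other controls had 5.87, 2.61 and 4.54 RPKM, so that the mutant stood far above all 4. Those other controls are on the lower side of the split described above, to which *mmp11b* belongs, and WT is on the higher side with the mutant. *timp2b* had 0.787 RPKM (80 reads) against 2.72 (402 reads), 3.45-fold (2.71 to 4.44) lower and below the lowest control at 1.57. *adam19b* had 0.596 RPKM against 1.30, 2.18-fold lower, with the controls between 1.25 and 1.81. *timp2a*, by contrast, had 31.4 RPKM, above the highest control at 26.1, with a ratio to it under the threshold.

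The count in *edn1* mutants changes with the comparison library. Against *jag1b*+/+ siblings 12 members were called, 8 higher and 4 lower, and the 3 above were among them. How many of all measured genes were called against siblings was not counted, so these counts cannot be set against a share. The additions on the higher side were *mmp14a*, *mmp14b*, *timp2a*, *mmp15a*, *adam8a*, *adam10a* and *adam19a*, and on the lower side *adam10b* and *mmp9*. Of these, *mmp14a*, *mmp14b*, *timp2a*, *adam19a* and *mmp9* belong to the split described above, as does *mmp11b* of the 3 called against WT.

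With forced Edn1 in hspGal4 ; UASEdn1 embryos, 2 members were higher than in hspGal4 (2.79% of all measured genes were) and 2 lower (4.03% of all). The median log2 ratio was -0.01, beside -0.05 over all genes, and 2 were higher and 1 lower with median-ratio scaling, *adam19b* being lost. *timp2b* had 3.83 RPKM (532 reads) against 2.20 (400 reads), 1.74-fold (1.53 to 1.99) higher and above all controls. *mmp17b* had 3.73 RPKM against 1.05, 3.56-fold higher, with the other controls between 0.308 and 0.882. Its mean over the 11 double-positive libraries was 1.23 RPKM. Without the hspGal4 ; UASEdn1 library that mean would be below 1, so *mmp17b* counts as measured only through the library where it is called. *mmp11a* had 29 reads against 67, 0.379 against 0.668 RPKM, 1.76-fold (1.12 to 2.83) lower, and *adam19b* had 1.15 RPKM against 1.81, 1.57-fold lower. *mmp11b*, at 2.101 RPKM, was below all 4 controls but not 1.5-fold below hspGal4 (2.61). The ear list summed to 14.0 RPKM in both libraries and the glia and pigment list to 19.9 and 27.9 RPKM; their part in the *mmp17b* level was not tested.

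No member passed the threshold in mutants for the Notch ligand gene *jag1b*. In *jag1b*-/- 0 of 24 members were higher and 0 lower than in siblings, where 0.64% and 2.23% of all genes were, and the median log2 ratio was 0.00. This was also the pair with the fewest calls over all genes. The abundant transcripts were close: *mmp2* had 56.0 RPKM against 50.3, *mmp14a* 22.05 against 23.2 and *timp2a* 15.1 against 15.6. *timp2b* had 3.18 RPKM (416 reads), above the highest control at 2.72, against 2.50 in siblings, and *adam10a* had 7.45, below the lowest control at 8.41; neither ratio reached 1.5.

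DBZ blocks the release of the Notch intracellular domain. In DBZ-treated embryos 3 members were higher than in WT and 0 lower, where 7.17% and 9.12% of all genes were; the median log2 ratio was -0.02, beside -0.07. *timp2b* had 816 reads against 402, 5.29 against 2.72 RPKM, 1.95-fold (1.73 to 2.20) higher and the highest of all 36 hpf libraries. *mmp11b* had 12.2 RPKM against 7.85, 1.56-fold (1.41 to 1.72) higher. *adam10b*, the paralogue of *adam10a*, had 8.18 RPKM against 2.53, a ratio of 3.24 (2.81 to 3.74). That last call rests on a low WT level: the 3 other controls had 6.73, 6.14 and 7.31 RPKM. *adam10b* was low in 4 libraries, WT at 36 hpf, *edn1*-/-, fli1a-only and sox10-only (1.27 to 2.53 RPKM), and between 5.22 and 9.11 in the 9 others. Against siblings, DBZ called 7 members, *timp2b* and *mmp11b* again among them, and *mmp11b* belongs to the split described above. For that library too the share over all genes was not counted.

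With forced Notch, hspGal4 ; UASNICD embryos had 5 members higher and 2 lower than in hspGal4, where 12.4% and 4.78% of all genes were. The median log2 ratio was 0.17, beside 0.11 over all genes, and with median-ratio scaling 3 were higher and 2 lower, since *adam8a* and *adam17a* were lost. *adam10a* had 29.7 RPKM against 10.9 in hspGal4, 2.73-fold higher, and the 3 other controls had 11.2, 8.41 and 12.7. *mmp15a*, a membrane-type MMP gene, had 4.39 RPKM against 2.02, 2.18-fold higher, and *adam9* 2.64 against 1.28, 2.06-fold higher. The sheddase gene *adam17a* had 10.9 RPKM against 6.83, and *adam8a* 11.9 against 7.50, ratios of 1.60 and 1.59 with the highest control close below (10.0 and 11.3). Of the 9 measured *adam* genes 4 were higher, and the family summed to 73.5 RPKM against 38.1 to 47.7 in the controls. Against the heat-shocked UASEdn1 library in place of hspGal4, 3 members were higher (*adam10a*, *adam8a* and *mmp17b*) and 2 lower, without a count over all genes. *adam17a*, *adam9* and *mmp15a*, with ratios of 1.09, 1.41 and 1.35, lost their calls.

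On the lower side with NICD, *timp2b* had 90 reads against 400, 0.644 against 2.20 RPKM, 3.41-fold (2.71 to 4.34) lower. *mmp11a* had 20 reads against 67, 0.260 against 0.668 RPKM, 2.57-fold (1.54 to 4.47) lower. Some markers of other *sox10*-positive cells were higher in this library than in the controls. The glia and pigment list summed to 122 RPKM against 5.66 to 27.9 in the controls. The ear list summed to 32.1 against 5.14 to 14.0, mostly through *stm* (19.96 RPKM), while *oc90* (5.58) lay within the controls. A neuron list, at 77.6 RPKM in sox10-only cells, also lay within them (6.66 against 2.33 to 14.3). The arch NCC list summed to 470 RPKM against 685 to 838. Its *barx1*, *hand2* and *dlx5a* (12.6, 10.04 and 13.9 RPKM), which the paper describes as inhibited by Notch, were far below all 4 controls. *nr2f5* and *fli1a* were above all 4. *adam10a* was high in sox10-only cells as well (24.6 RPKM), whereas *mmp15a*, *adam9* and *adam17a* were not (2.03, 1.04 and 5.25), and *mmp17b* had 1.40 RPKM against 1.05 in hspGal4 and was not called. The part of glia, pigment and ear cells in the members' levels was not tested.

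Across the perturbations *timp2b* was the member called most often. It was below all controls in *edn1*-/- and hspGal4 ; UASNICD (0.787 and 0.644 RPKM) and above all controls in hspGal4 ; UASEdn1, *jag1b*-/- and DBZ (3.83, 3.18 and 5.29), with the 4 controls between 1.57 and 2.72. No perturbed library lay inside that range. *timp2b* is singled out here as the most often called of the measured members. The share of all genes with all 5 perturbed libraries outside the control range was not counted. *mmp11b* was highest in *edn1*-/- (21.8 RPKM) and DBZ (12.2) and lowest in hspGal4 ; UASEdn1 (2.101) and then hspGal4 (2.61) and hspGal4 ; UASNICD (2.79). It belongs to the split described above, with WT, *edn1*-/- and DBZ above the genotyped and heat-shocked libraries. *timp2a*, the abundant inhibitor, was called in none of the 5, and nor were *mmp2*, *mmp14a*, *mmp14b* and *adamts1*. The ratio of summed *mmp14* to summed *timp2* RPKM was 3.07 in *edn1*-/-, 2.88 in hspGal4 ; UASEdn1, 2.47 in *jag1b*-/-, 2.83 in DBZ and 3.31 in hspGal4 ; UASNICD, all within or just under the control range of 2.53 to 3.83.

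**Figure D4:**
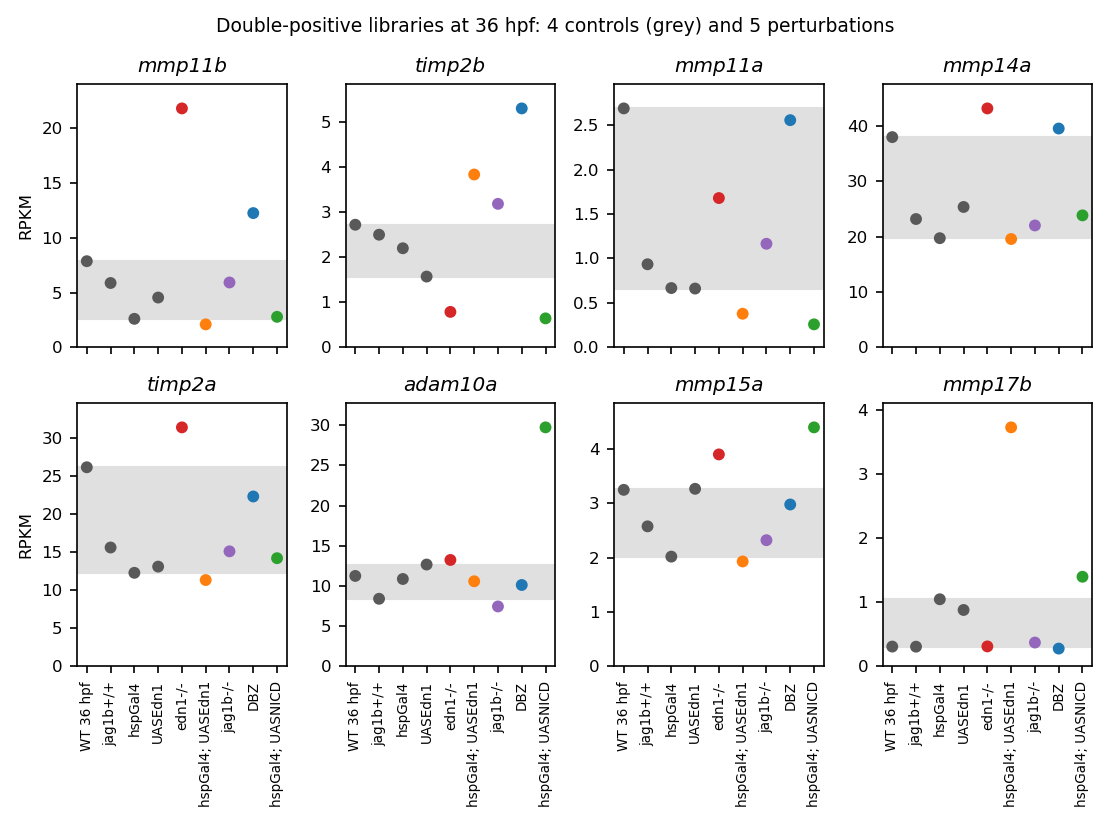
RPKM of 8 members in the 9 double-positive libraries of 36 hpf, with the 4 controls as grey points and their range as a grey band, and the 5 perturbed libraries in colour; each axis starts at 0 and each point is 1 library. For *timp2b* the 5 perturbed libraries all lie outside the band (1.57 to 2.72 RPKM), and for *mmp14a* and *timp2a* the upper edge of the band is the WT library.

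Other genes of matrix breakdown were looked up from a list of 51 names, of which 44 were in the table and 21 measured. From 20 to 28 hpf 4 were higher and 3 lower (19.9% and 10.7% of all measured genes), and from 28 to 36 hpf 9 higher and 2 lower (14.8% and 23.9% of all), with medians of 0.09 and 0.37 on the log2 scale. The collagen-degrading cathepsin gene *ctsk* had 14.9, 13.5 and 46.4 RPKM at the 3 stages, and the fibroblast activation protease gene *fap* 0.128, 0.451 and 9.70. The 36 hpf values are those of WT alone. In *jag1b*+/+, hspGal4 and UASEdn1 *ctsk* had 18.8, 27.9 and 26.1 RPKM, and *fap* 8.26, 2.39 and 3.21. Of the genes higher from 28 to 36 hpf, 5 were called lower in *jag1b*+/+ than in WT (*cst3*, *pcolce2a*, *ctsk*, *furina* and *hpse*). *reck*, which encodes a membrane-anchored MMP inhibitor, had 26.7, 28.5 and 17.6 RPKM, 1.61-fold lower at 36 than at 28 hpf. Its level in the other controls was closer to that of 28 hpf, with 22.3 RPKM in *jag1b*+/+, 27.2 in hspGal4 and 27.1 in UASEdn1. Against sox10-only cells 12 of the 21 were higher in double-positive cells and 4 lower (22.9% and 16.4% of all), and against fli1a-only cells 2 and 2 (17.8% and 11.8% of all).

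In the perturbations the same list gave 3 higher and 3 lower in *edn1*-/- (20.3% and 8.06% of all genes) and 0 and 4 in hspGal4 ; UASEdn1 (2.79% and 4.03%). It gave 0 and 0 in *jag1b*-/- (0.64% and 2.23%), 4 and 0 in DBZ (7.17% and 9.12%), and 3 and 3 in hspGal4 ; UASNICD (12.4% and 4.78%). *fap* had 15.9 RPKM in *edn1*-/- against 9.70 in WT, and 1.14 in hspGal4 ; UASEdn1 against 2.39 in hspGal4, both outside the control range (2.39 to 9.70). That range itself parted by heat shock, with 9.70 and 8.26 RPKM in WT and *jag1b*+/+, and 2.39 and 3.21 in hspGal4 and UASEdn1. Inside it lay hspGal4 ; UASNICD (5.62) and *jag1b*-/- (5.28). The serine protease gene *htra1a* had 10.6 RPKM in DBZ against 3.71 in WT.

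Of 34 names of substrates and partners, 23 were in the table, 14 of them measured over the double-positive libraries and 15 over all. From 20 to 28 hpf 9 of the 14 were higher and 0 lower (19.9% and 10.7% of all genes), and from 28 to 36 hpf 5 higher and 1 lower (14.8% and 23.9% of all). The versican gene *vcanb*, a substrate of ADAMTS1, had 2.83, 6.02 and 8.96 RPKM, and the basement membrane gene *nid1a* 0.860, 2.75 and 8.96. Here too the 36 hpf values are those of WT alone. In *jag1b*+/+, hspGal4 and UASEdn1 *nid1a* had 3.16, 3.09 and 3.50 RPKM, near its 28 hpf level, and *vcanb* 8.79, 7.79 and 11.9. *nid1a*, *thbs1b*, *tgfb2* and *tspan15*, all higher from 28 to 36 hpf, were called lower in *jag1b*+/+ than in WT. Against sox10-only cells 10 of 15 were higher in double-positive cells and 2 lower (22.9% and 16.4% of all), and against fli1a-only cells 6 and 3 (17.8% and 11.8% of all). *vcanb* had 2.53 RPKM in DBZ, below all controls (7.79 to 11.9), and 25.1 in hspGal4 ; UASNICD, above them; *nid2a* had 101 RPKM with NICD against 44.6 in hspGal4.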

How the data were processed

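RNA of sorted cells was made into cDNA with a SMARTer kit and sequenced as paired ends on 2 Illumina instruments; which library ran on which is not given in the sources used here. The authors trimmed the reads, aligned them with TopHat 2 to GRCz10 (Ensembl release 80) and quantified genes with the Partek E/M algorithm, which yielded the deposited RPKM values, without pooling of libraries. An E/M count can split reads between paralogues.

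The RPKM values were used as deposited, with no pseudocount, in Python (3.11.15). Arrays were handled in numpy (2.4.6) and pandas (2.3.3), intervals came from scipy (1.17.1) and plots from matplotlib (3.10.9). The 13 libraries were grouped by their titles. Every comparison used 1 library per condition, a mean of at least 1 RPKM and a ratio of 1.5; the study applied that fold in part to ratios of fold changes. No test was possible. Whole reads were recovered from the steps of RPKM within 0.06 read, which gave depths relative to WT at 36 hpf but no totals. The procedure was tested on simulated data. The genes named were every *timp*, the 6 highest of each other family, the 5 largest calls per comparison and direction, and the targeted genes; others were chosen after their values were seen. The members and lists were chosen with earlier results of these data known. Gene names are those of the table. Alternatives varied the minimum, fold, pseudocount, scaling and control library, and left out each control in turn.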

Additional observations from a re-analysis of the deposited data

How the results depend on the processing

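Each condition had 1 library, so no spread between replicates was available, and the depth limits members with few reads. No paired analysis was possible because no condition had a second library with a shared replicate number. Leaving each control in turn out of the control range gave 3 to 4 called members for *edn1*, 4 to 6 for Edn1, 0 for *jag1b*, 3 to 4 for DBZ and 7 to 9 for NICD. Of the counts of called members under the other settings and these, 76 stayed within 1.5 times the count reported and 34 did not. No share over all genes was counted for any of these settings. Without a minimum, where low genes enter, called members were 33 (20 to 28 hpf), 38 (28 to 36 hpf), 27 (fli1a-only), 45 (sox10-only), 14 (*edn1*), 10 (Edn1), 5 (*jag1b*), 7 (DBZ), 18 (NICD), 21 (heat-shocked controls) and 29 (unshocked controls). At a minimum mean of 3 RPKM they were 10, 10, 5 and 11 for the stages and sorted populations, 1 for *edn1*, 0 for Edn1 and 3 for NICD, and at 0.3 RPKM 6 for *edn1* and 1 for *jag1b*. A fold of 2 gave 4 (fli1a-only), 1 (Edn1), 1 (DBZ), 2 (heat-shocked controls) and 4 (unshocked controls), and a pseudocount of 1 gave 5 (fli1a-only), 2 (Edn1) and 3 (heat-shocked controls). Median-ratio scaling gave 5 for *edn1*. The fold alone, without the control range, gave 6 for *edn1* and 5 for DBZ. With the other control library the counts were 12 for *edn1*, 2 for *jag1b* and 7 for DBZ. The log2 ratios of single called members kept their direction under every setting except 2, both with the *jag1b*+/+ library for WT at 36 hpf: *mmp14b* from 28 to 36 hpf (-0.029) and *mmp9* over fli1a-only cells (0.54). The use of that library for the sorted populations was chosen after seeing the data. The cause of these differences was not tested.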

Other observations

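Several genes of the same families stood in the table under other names and were left out by the naming rule; they were found by gene identifier and are named here after their values were seen. Of 11 such entries 3 had a mean of at least 1 RPKM. An MMP15 gene (MMP15 (1 of 2)) had 2.40, 3.42 and 3.25 RPKM at 20, 28 and 36 hpf, 5.52 in hspGal4 ; UASNICD and 11.5 in sox10-only cells. ADAMTSL5 had 0.130, 0.562 and 1.41 RPKM at the 3 stages, 2.83 in *jag1b*-/- against 2.007 in siblings, and 0.195 in hspGal4 ; UASNICD against 1.34 in hspGal4. ADAMTS7 had 0.676, 0.875 and 1.30 RPKM, with 0.965 in fli1a-only cells, so that it was not past the threshold there as the named *adamts* genes were, and 0.670 in sox10-only cells. Below that mean, a TIMP4 gene (FQ311892.2) had 2.11 RPKM at 20 hpf and 0.382 at 28 hpf and was listed at 0 in WT at 36 hpf.

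Members below the minimum, also named after their values were seen, marked the single-positive populations. *adam22* had 0.761 RPKM (177 reads) and *adam23a* 0.816 (129 reads) in sox10-only cells, against 0.0895 (22 reads) and 0.0718 (12 reads) in double-positive cells, ratios of 8.51 (5.45 to 13.9) and 11.4 (6.29 to 22.6). *adam12*, known from muscle and mesenchyme, had 1.004 RPKM (222 reads) in fli1a-only cells against 0.184 (47 reads) in double-positive cells. The aggrecan protease gene *adamts5* had 0 reads at 20 hpf, 95 in WT at 36 hpf and 195 in sox10-only cells. The procollagen protease gene *bmp1a* is not a member but belongs to the list of other genes of matrix breakdown, and it was measured. *bmp1a* was low in 2 libraries, *edn1*-/- (0.224 RPKM) and sox10-only cells (0.242), and between 0.816 and 2.22 in the 11 others. Among the perturbations it was called lower in *edn1*-/- and hspGal4 ; UASNICD.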
